A study of Homo sapiens with 18 samples.

Results

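The cornified envelope genes examined here are 10 named genes, IVL, SPRR1A, SPRR1B, SPRR2A, SPRR2D, SPRR3, TGM1, A2ML1, SCEL and CNFN, chosen by name for the proteins they encode, and all 10 were found among the 35933 genes with values in the table. Their RNA was measured by RNA sequencing in 18 libraries from 3 breast cell lines of the MCF10 series. MCF10A is a spontaneously immortalized breast epithelial line that does not form tumors, MCF10AT1 is MCF10A with a stably integrated mutated HRas, and MCF10CA1h cells came out of MCF10AT1 xenografts passaged in mice, so both derived lines carry the mutated HRas in negative control and labelled knockdown cells alike. Each line was sequenced as a control with the genotype label Control Negative CRISPR and as cells with the label METTL3 CRISPR knockdown, with 3 lettered replicates (a, b and c) in each of the 6 groups. All lines had received a Cas9 and mCherry construct, with a control guide or with a guide against exon 1 of METTL3, the enzyme that methylates adenosine in mRNA, and were sorted and grown from single cells. All replicates of a group are 1 such line, clone-to-clone variation is therefore not part of the spread, and clone and guide cannot be told apart. No source used here says whether the replicates were separate cultures, so the p-values measure the spread between these samples, which may be technical. All cells were kept in the same medium with horse serum, insulin, hydrocortisone, cholera toxin and epidermal growth factor.

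The cornified envelope is a sheet of protein that replaces the plasma membrane of squamous cells as they finish their differentiation, in the epidermis, the mouth and the esophagus. Involucrin (IVL) is laid down early under the membrane, the small proline-rich proteins (SPRR) act as short bridges between other proteins, and transglutaminase 1 (TGM1) joins them by bonds between glutamine and lysine. Sciellin (SCEL) and cornifelin (CNFN) are further building blocks, and A2ML1 is a secreted protease inhibitor of the upper epidermis. Breast epithelium does not form a cornified layer, but basal-like breast cells in culture can express these genes.

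On hg38 in the GENCODE v44 annotation, 6 of the 10 genes lie together on chromosome 1 within 148967 bases (152908546 to 153057512), in the epidermal differentiation complex. In order these are IVL, SPRR1A, SPRR3, SPRR1B, SPRR2D and SPRR2A. The other 4 lie apart, with TGM1 on chromosome 14 (24249114 to 24264432), A2ML1 on chromosome 12 (8822621 to 8887001), SCEL on chromosome 13 (77535674 to 77645263) and CNFN on chromosome 19 (42387019 to 42390297). The genes of the complex have 2 exons each, while CNFN has 4, TGM1 15, SCEL 33 and A2ML1 36. Close copies limit how well reads can be assigned: of the stretches of 31 bases in the reference transcript, 52.7% in SPRR2A and 48.8% in SPRR2D also occurred in other genes, mostly each other and SPRR2B, so the split between them is uncertain. SPRR1A and SPRR1B shared 14.9% and 15.6% of theirs with each other, A2ML1 shared 1.61%, and the other 5 genes shared none. Genes on the opposite strand overlap IVL, A2ML1 and SCEL. The libraries were described as stranded, and whether strand was used in the quantification is not given in the sources used here.

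The promoters of the members are shown because AP-1, the family of FOS and JUN dimers, is a known activator of genes of the epidermal differentiation complex, and because AP-1 genes are among the factors described further on. RefSeq windows of 250 bases before to 50 bases after a start, on GRCh38.p14, were found for 8 of the 10 members, with 2 windows for A2ML1 and none used for SPRR2D and TGM1. The AP-1 letters TGANTCA, which read the same on both strands, occurred in 6 of these 9 windows and in 7.71% of 35116 promoter windows of the same length. All of the 6 but that of SCEL lie in the chromosome 1 cluster, and SPRR genes are related copies, so these windows are not independent. The windows of A2ML1 and CNFN did not hold the letters. The 6 windows follow 5′ to 3′ along each gene, with the AP-1 letters in capitals.

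IVL: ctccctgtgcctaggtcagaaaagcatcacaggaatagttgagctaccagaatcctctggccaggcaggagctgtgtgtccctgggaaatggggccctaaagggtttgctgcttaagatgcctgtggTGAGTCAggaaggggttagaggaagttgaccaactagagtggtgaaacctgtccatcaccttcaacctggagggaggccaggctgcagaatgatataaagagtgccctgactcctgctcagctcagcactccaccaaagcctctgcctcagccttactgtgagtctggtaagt

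SPRR1A: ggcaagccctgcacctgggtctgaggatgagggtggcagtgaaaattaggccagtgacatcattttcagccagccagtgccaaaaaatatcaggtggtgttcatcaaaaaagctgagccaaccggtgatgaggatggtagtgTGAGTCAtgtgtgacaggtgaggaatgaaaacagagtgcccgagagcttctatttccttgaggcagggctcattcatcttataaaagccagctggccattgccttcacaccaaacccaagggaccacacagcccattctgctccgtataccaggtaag

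SPRR1B: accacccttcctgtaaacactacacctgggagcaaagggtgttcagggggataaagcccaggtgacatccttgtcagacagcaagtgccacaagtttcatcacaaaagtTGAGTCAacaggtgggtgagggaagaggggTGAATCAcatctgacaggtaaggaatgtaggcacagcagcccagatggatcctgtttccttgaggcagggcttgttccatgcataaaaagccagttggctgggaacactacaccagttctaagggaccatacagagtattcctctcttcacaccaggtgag

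SPRR2A: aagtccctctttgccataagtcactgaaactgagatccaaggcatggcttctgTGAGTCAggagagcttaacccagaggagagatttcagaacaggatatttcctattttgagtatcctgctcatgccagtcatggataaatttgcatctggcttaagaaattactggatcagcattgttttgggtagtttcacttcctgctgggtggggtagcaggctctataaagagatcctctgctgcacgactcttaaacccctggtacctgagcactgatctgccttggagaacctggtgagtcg

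SPRR3: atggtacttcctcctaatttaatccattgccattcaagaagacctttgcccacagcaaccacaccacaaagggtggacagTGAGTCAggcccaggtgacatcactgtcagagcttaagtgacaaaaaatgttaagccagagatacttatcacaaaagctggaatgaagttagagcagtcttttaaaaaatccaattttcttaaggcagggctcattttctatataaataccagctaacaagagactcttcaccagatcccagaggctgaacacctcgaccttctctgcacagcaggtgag

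SCEL: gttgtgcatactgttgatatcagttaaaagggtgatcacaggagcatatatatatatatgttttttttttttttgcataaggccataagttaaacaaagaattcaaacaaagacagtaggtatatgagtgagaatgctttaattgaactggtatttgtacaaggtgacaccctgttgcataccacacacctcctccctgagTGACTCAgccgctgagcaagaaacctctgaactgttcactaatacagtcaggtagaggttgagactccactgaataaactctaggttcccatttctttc

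These windows are chr1:152908296-152908595 (plus strand), chr1:152983831-152984130 (plus), chr1:153030953-153031252 (plus), chr1:153057463-153057762 (minus), chr1:153001499-153001798 (plus) and chr13:77535456-77535755 (plus). The match begins 123 bases before the start in IVL, 108 in SPRR1A, 197 in SPRR2A, 170 in SPRR3 and 49 in SCEL, and SPRR1B has 2, at 141 and 111 bases. More than 1 match was present in 0.515% of all windows. A TATA box (TATAAA, either strand, anywhere in the window) was found in 5 of 9 windows against 11.5% of all. It lay 29 to 31 bases before the start in IVL, SPRR1A, SPRR2A, SPRR3 and A2ML1. The share of all windows with it at that place was not counted. The letters CACACCC, a core of the sites bound by KLF factors, were found in 1 of the 9 windows, that of A2ML1, and in 7.56% of all. These are matches of letters, and no binding was measured.

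The deposited values are counts that the authors normalized between libraries, and are called normalized counts here. Library sums ranged from 21347352 to 31681834, and the number of reads behind a value is unknown. METTL3 RNA had a mean of 632 ± 154 (SD, n = 3) in MCF10A control and 810 ± 261 (SD, n = 3) in the labelled knockdown, 930 ± 111 and 823 ± 75.2 in MCF10AT1, and 1135 ± 132 and 804 ± 52.3 in MCF10CA1h. It was lower past the threshold in MCF10CA1h (adjusted p = 0.0234, limma with Benjamini-Hochberg adjustment, as for every adjusted p here), and did not pass it in MCF10A (0.618) or MCF10AT1 (0.707), so the libraries are named by their labels throughout. These are RNA values. The paper reported less METTL3 protein by Western blot in knockdown cells of each line. By real-time PCR it reported a lesser effect on METTL3 mRNA, still a relative decrease. In the values here the MCF10A mean was higher in the labelled knockdown, a difference that was not called. The basal epithelial markers KRT5, KRT14, KRT17, TP63, ITGB4, LAMB3 and CDH3 were present in all 6 groups, with none under 10 in all libraries of a group. The marker lists moved unevenly in MCF10AT1 labelled knockdown. Of 7 basal markers, KRT5 (mean 3045 against 44293 in its control), KRT14, KRT17 and CDH3 were lower, while ITGB4 (102830 against 34409), TP63 and LAMB3 were not called, and the basal sums overlapped (60350 to 181256 against 98339 to 143523). Of 6 luminal markers tested, EPCAM (107 against 3785) and CDH1 (40.9 against 3906) were lower, and KRT8 (log2 difference -0.45), KRT18 (-0.51), KRT19 (-2.94) and GATA3 (0.12) were not called. Of 5 fibroblast markers tested, THY1 (2040 against 1.53) and COL3A1 (811 against 0.750) were higher, and DCN (684 against 391), COL1A1 (81.8 against 117) and PDGFRB (19.0 against 21.8) were not called. The 7 fibroblast markers summed to between 2701 and 4485 there and to between 427 and 658 in its control, and 2 of the 7 were under 10 in all of those labelled knockdown libraries. Of 5 endothelial markers at least 3 were under 10 in all libraries of every group, as were 3 of the 4 leukocyte markers in the table. In MCF10A, 1 of the 7 basal markers was called, KRT5 (higher, 1.87-fold), and no luminal or fibroblast marker. KRT14 (811 against 2433 in its control, adjusted p = 0.0608), LAMB3 (38968 against 106614, 0.0649) and ITGB4 (48533 against 80863, 0.116) were not called. All labelled knockdown libraries of these lay below their controls, while KRT17, TP63 and CDH3 overlapped. The part of these markers in the results was not tested.

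**Figure D1:**
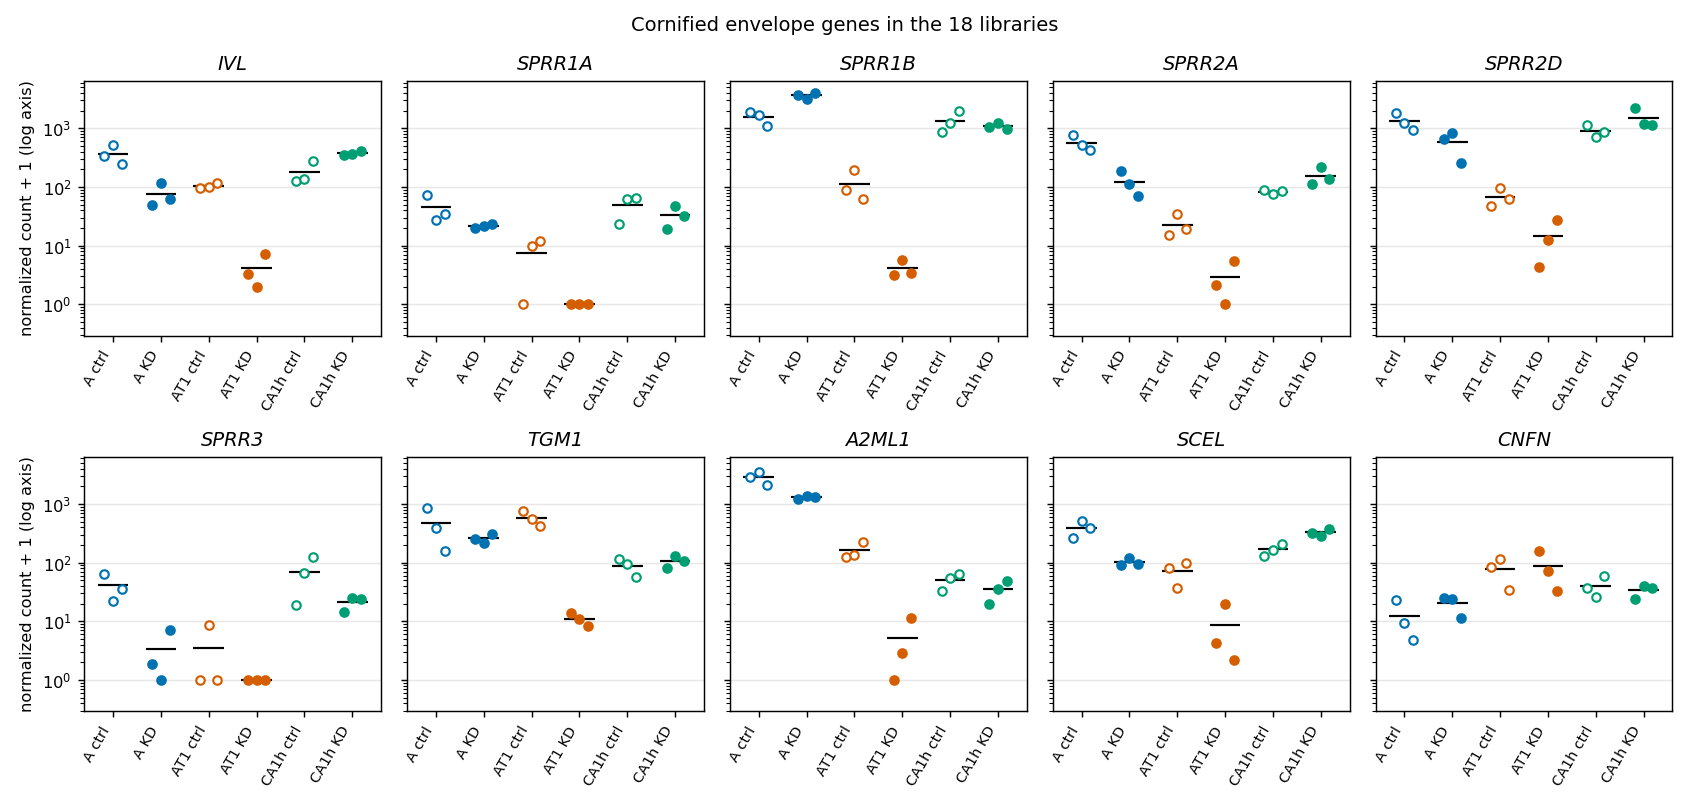
Normalized count plus 1 (log axis) of the 10 genes in each library, with open circles for negative control (ctrl), filled circles for labelled METTL3 knockdown (KD) and lines at the group means; replicates a, b and c run from left to right. MCF10AT1 labelled knockdown has the lowest mean of the 6 groups for 9 of the 10 genes, the exception being CNFN.

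The negative control cells were compared first, to place the genes along the MCF10 series. In MCF10AT1 control, 8 of the 10 members were lower and 1 was higher than in MCF10A control, against 14.7% of 15652 tested genes lower and 13.3% higher. Their median log2 difference was -3.49, against -0.01 for all tested genes. In MCF10CA1h control, 6 members were higher and 2 lower than in MCF10AT1 control (11.0% and 10.8% of all tested genes), and 5 were lower and 1 higher than in MCF10A control (18.8% and 19.0%). The 3 comparisons share their control libraries and are not independent of each other. Cell type markers moved between the controls as well. Against MCF10A, MCF10AT1 had 6 of 7 basal markers lower, 4 of 6 luminal markers tested higher and 1 of 6 fibroblast markers tested lower. Against MCF10AT1, MCF10CA1h had 4 basal and 4 fibroblast markers higher and no luminal marker called. Against MCF10A, MCF10CA1h had 3 basal markers lower and 1 higher, and 4 luminal and 3 fibroblast markers higher. The part of these markers was not tested.

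The SPRR genes showed the low level in MCF10AT1 most clearly. SPRR1B, which bridges other envelope proteins, had normalized counts of 1894, 1686 and 1099.5 in MCF10A control replicates a, b and c, 86.3, 193 and 60.3 in MCF10AT1 control, and 855, 1252 and 1943 in MCF10CA1h control. All MCF10AT1 libraries were below all of the others, while MCF10A and MCF10CA1h overlapped. The log2 difference was -3.91 (SE 0.45, adjusted p = 0.000851) from MCF10A to MCF10AT1, 3.66 (SE 0.45, adjusted p = 0.000708) from MCF10AT1 to MCF10CA1h, and -0.25 (SE 0.45, adjusted p = 0.685) from MCF10A to MCF10CA1h. SPRR2D was 1860, 1235 and 928 in MCF10A control, 46.2, 94.2 and 61.2 in MCF10AT1 control, and 1130.5, 702 and 868 in MCF10CA1h control. It was again low in MCF10AT1 alone among the controls, with log2 differences of -4.30 (adjusted p = 0.000231) and 3.76 (adjusted p = 0.00017) against the line before and after it, and of -0.54 (adjusted p = 0.235) between MCF10A and MCF10CA1h. SPRR2A differed from both in that its 3 controls did not overlap in any pair. Its values were 775, 513 and 421 in MCF10A, 14.0, 33.0 and 18.1 in MCF10AT1, and 88.1, 75.9 and 83.4 in MCF10CA1h, so that MCF10CA1h had 14.5% of the MCF10A mean (log2 difference -2.73, SE 0.37, adjusted p = 0.000758).

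SPRR1A and SPRR3, the other members of the family, were low in all lines. SPRR1A was 71.9, 26.6 and 33.7 in MCF10A control, 0, 8.69 and 11.2 in MCF10AT1 control, and 22.1, 62.1 and 63.6 in MCF10CA1h control. SPRR3 was 63.8, 20.9 and 35.3 in MCF10A control, was listed at 0, 7.58 and 0 in MCF10AT1 control, and was 17.97, 67.0 and 123 in MCF10CA1h control. Both passed the test as lower in MCF10AT1 than in MCF10A (adjusted p = 0.0352 for SPRR1A and 0.0142 for SPRR3) and as higher in MCF10CA1h than in MCF10AT1 (0.0337 and 0.00851). In MCF10AT1 control the means were 6.63 for SPRR1A and 2.53 for SPRR3. Both passed the filter of a mean of at least 10 through the other controls, so their place in the counts of called members is a description. The MCF10A and MCF10CA1h controls overlapped for both genes. The calls of SPRR1A were fragile: between MCF10AT1 and MCF10A it was lost without MCF10A a, b or c, MCF10AT1 a, or MCF10CA1h b or c (adjusted p 0.0539 to 0.0923), and between MCF10CA1h and MCF10AT1 without MCF10A b, MCF10AT1 a, or MCF10CA1h a, b or c (0.0513 to 0.115). For SPRR3 the call between MCF10AT1 and MCF10A was lost without MCF10A c (0.0513) or MCF10AT1 a (0.0564).

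IVL, the early scaffold protein, was highest in MCF10A control at 341, 529 and 244, and was 93.7, 100.5 and 116 in MCF10AT1 control and 127, 137 and 277 in MCF10CA1h control. The MCF10AT1 mean was 27.9% of that in MCF10A (log2 difference -1.77, SE 0.37, adjusted p = 0.0107). SCEL, another building block, was 267, 506 and 383 in MCF10A control, 81.1, 36.3 and 97.4 in MCF10AT1 control, and 132, 164 and 208 in MCF10CA1h control. It fell in the same way, to 18.6% of MCF10A (log2 difference -2.48, SE 0.40, adjusted p = 0.00401). In MCF10CA1h both lay between the other lines, with adjusted p against MCF10A of 0.0491 for IVL and 0.0454 for SCEL. These 2 calls against MCF10A were lost with the libraries brought to equal sums (0.0708 and 0.0837). They were also lost when single libraries were left out, for IVL without MCF10A a or b, MCF10AT1 a, or MCF10CA1h a or b (0.0666 to 0.184), and for SCEL without MCF10A b or c, MCF10AT1 a, or MCF10CA1h a, b or c (0.0583 to 0.161). Against MCF10AT1, SCEL was higher in MCF10CA1h (adjusted p = 0.0452), and IVL was not called (0.202). That SCEL call was lost with equal sums (0.0676) and without MCF10A b or c, MCF10AT1 a or b, or MCF10CA1h a, b or c (0.0605 to 0.152).

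TGM1, A2ML1 and CNFN followed other orders. TGM1, the cross-linking enzyme, was 847, 395 and 159 in MCF10A control and 763, 554 and 416 in MCF10AT1 control, which overlapped, and 114, 92.4 and 56.2 in MCF10CA1h control, below every library of the other lines. It was lower in MCF10CA1h than in both other lines, as was A2ML1, with log2 differences of -2.15 (SE 0.55, adjusted p = 0.0135) from MCF10A and -2.72 (SE 0.55, adjusted p = 0.00802) from MCF10AT1. The protease inhibitor A2ML1 was 2942, 3482 and 2084 in MCF10A control, 125, 133 and 225 in MCF10AT1 control, and 31.5, 52.9 and 64.5 in MCF10CA1h control, a decline at each step with no overlap. MCF10CA1h had 1.75% of the MCF10A mean (log2 difference -5.84, SE 0.35, adjusted p = 1.63e-05). CNFN ran the other way, at 22.4, 8.27 and 3.75 in MCF10A control, 82.1, 116 and 32.8 in MCF10AT1 control, and 35.7, 25.3 and 57.4 in MCF10CA1h control. It was higher than in MCF10A in both lines (adjusted p = 0.0167 and 0.0454), and these 2 calls were lost without some libraries: in MCF10AT1 without MCF10A b or c or MCF10AT1 a (0.0608 to 0.0644), and in MCF10CA1h without MCF10A b or c, MCF10AT1 a, or MCF10CA1h a, b or c (0.0634 to 0.155). The TGM1 call between MCF10CA1h and MCF10A was lost without MCF10CA1h c (0.0565), and the count of 6 members called in that comparison became 3 without MCF10A b, MCF10AT1 a, or MCF10CA1h a, b or c.

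**Figure D2:**
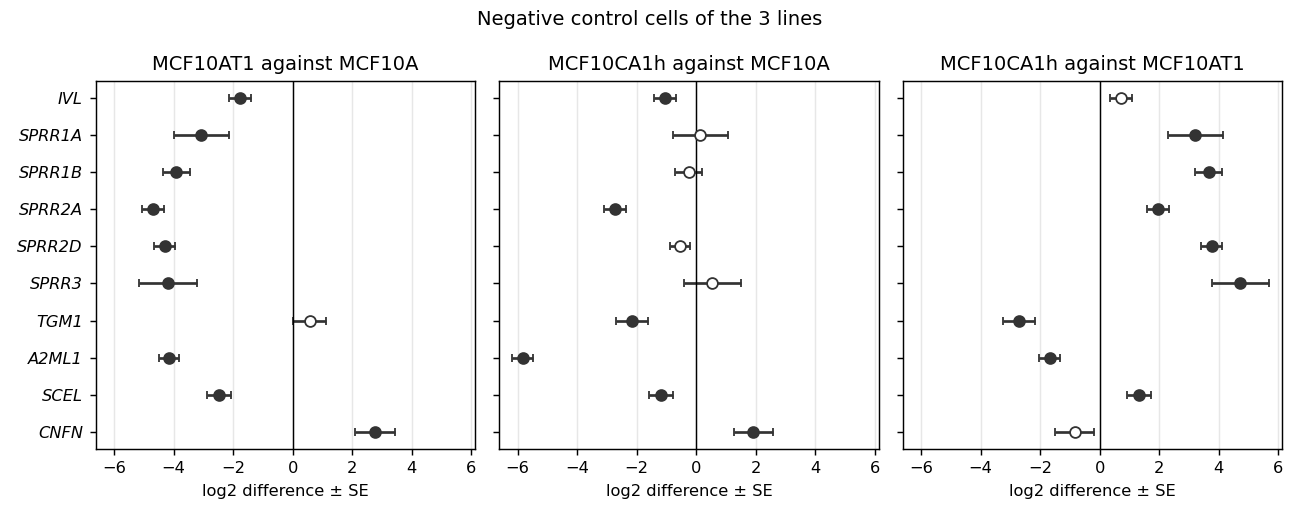
Log2 difference of the normalized count plus 1 between the negative control cells of each pair of lines, with bars of 1 SE; filled points passed an adjusted p of 0.05. The 5 SPRR genes lie left of 0 for MCF10AT1 against MCF10A and right of 0 for MCF10CA1h against MCF10AT1, while A2ML1 lies left of 0 in all 3 panels.

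In MCF10A, the labelled knockdown had lower IVL, SCEL, SPRR2A, SPRR3 and A2ML1 and higher SPRR1B than the control, so 5 of the 10 members were called lower and 1 higher, against 1.49% and 1.16% of 15416 tested genes. The median log2 difference of the members was -1.20, against -0.00 for all tested genes. Groups did not overlap for 8 members, 7 below and 1 above, where 13.4% and 10.5% of tested genes lay apart in those directions. These calls hung on single libraries: 6 members were called without control a, 5 without control c, none without control b or labelled knockdown c, 1 without labelled knockdown a and 2 without labelled knockdown b, and an unadjusted p under 0.05 was reached by 7 members with all libraries, by 8 without control b and by 7 without labelled knockdown c. All tested genes lost and gained calls too, from 179 higher and 230 lower with all libraries to 13 and 39 without labelled knockdown c and 614 and 804 without control a. No member was called when genes of low value were kept in the test, where 6 had an unadjusted p under 0.05, and 1 was called with no intensity trend.

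IVL fell from 341, 529 and 244 in control to 49.0, 118 and 60.7 in the labelled knockdown of MCF10A, with means of 371 ± 145 (SD, n = 3) in control and 75.9 ± 37.0 (SD, n = 3) in the labelled knockdown. The second mean is 20.5% of the first (log2 difference -2.31, SE 0.40, adjusted p = 0.028). SCEL fell to 89.5, 119 and 93.5, or 26.2% of the control (log2 difference -1.89, SE 0.28, adjusted p = 0.0172). Every labelled knockdown library of both building blocks was below every control library. A2ML1 was 1212, 1360 and 1340 in the labelled knockdown, 46.0% of the control with no overlap (log2 difference -1.09, SE 0.20, adjusted p = 0.0337), and was not called with equal sums (0.0639). TGM1 was 255, 218 and 312, within the wide range of its control (log2 difference -0.54, SE 0.52, adjusted p = 0.648), and the sign of that difference turned without control a (0.05). CNFN was 24.5, 23.4 and 10.6 and overlapped its control too (adjusted p = 0.509).

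The SPRR genes did not move together in MCF10A. SPRR1B rose to 3716, 3128 and 4060, where the control mean was 1560 ± 412 (SD, n = 3) and the labelled knockdown mean 3635 ± 471 (SD, n = 3), 2.33-fold higher (log2 difference 1.25, SE 0.22, adjusted p = 0.0299). Over the 6 groups, these 3 libraries held the highest SPRR1B values. SPRR2A fell instead, to 187, 111 and 69.3, or 21.5% of the control (log2 difference -2.28, SE 0.38, adjusted p = 0.0252), and SPRR3 to 0.860, 0 and 6.13, or 5.83% (log2 difference -3.98, SE 0.79, adjusted p = 0.0429). SPRR3 passed the filter of a mean of at least 10 through its control alone, so its place in the count of lower members is a description. SPRR2D was 661, 820 and 257, also below every control library (log2 difference -1.31, SE 0.43), and its call depends on the pairing of libraries by letter: the adjusted p was 0.159 without the pairing and 0.0179 with the letter as a block. SPRR1A was 18.9, 20.7 and 22.1, all below its control at 26.6 to 71.9, and did not pass the test (adjusted p = 0.304).

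As a result the make-up of the SPRR transcripts differed between the groups of MCF10A. Divided by transcript length and taken as a share of the 5 SPRR genes, SPRR1B made up 42.9%, 50.7% and 46.0% in the control replicates and 82.4%, 78.2% and 92.6% in the labelled knockdown, with means of 46.6% ± 3.9 (SD, n = 3) and 84.4% ± 7.4 (SD, n = 3). SPRR2D took 36.0% ± 2.3 and 12.5% ± 6.7, and SPRR2A 15.4% ± 1.1 and 2.59% ± 1.2. The shares of all 3 genes did not overlap between the groups, though the split between SPRR2A and SPRR2D is uncertain for the shared sequence given above. In MCF10CA1h the SPRR1B share was 56.3% ± 12.1 in the control and 42.2% ± 7.7 in the labelled knockdown, which overlapped. The share was 54.3% ± 10.6 in MCF10AT1 control. No share is read for MCF10AT1 labelled knockdown, where no SPRR value was above 26.1.

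**Figure D3:**
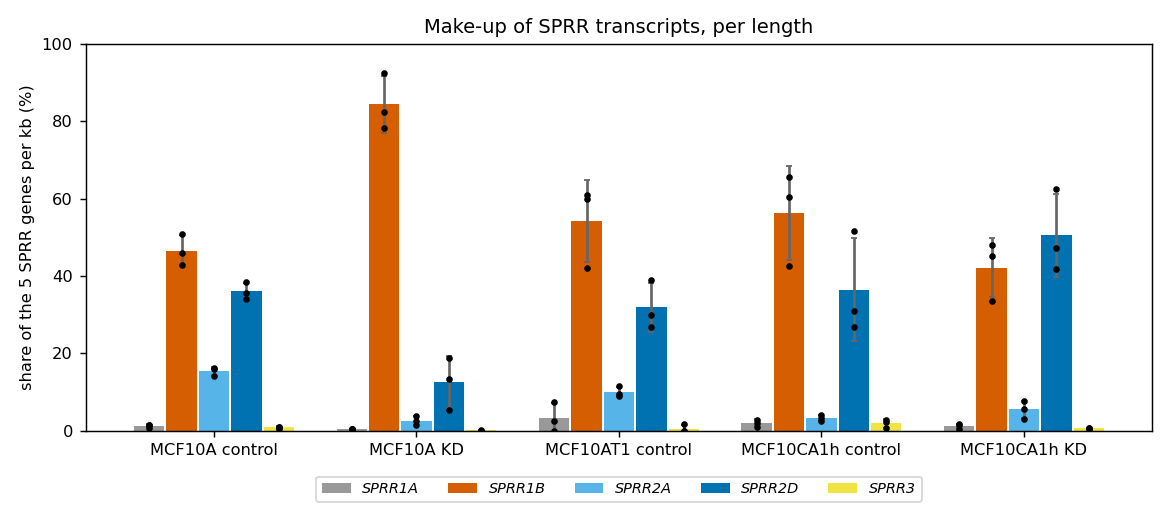
Share of each SPRR gene in the sum of the 5 SPRR genes, after division by transcript length (bars, means of 3 libraries; lines, 1 SD; points, libraries), without MCF10AT1 labelled knockdown (KD), where the values were close to 0. In MCF10A the SPRR1B share is 46.6% in the control and 84.4% in the labelled knockdown.

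In MCF10AT1, the labelled knockdown had little RNA left of most members. Lower levels passed the test for TGM1, A2ML1, IVL, SPRR1B, SCEL and SPRR2A, 6 of the 8 members tested, and none was higher, against 5.96% of 16050 tested genes lower and 7.07% higher. SPRR1A and SPRR3 were below the filter of a mean of at least 10 and were not tested. IVL, SPRR1B, SPRR2A, A2ML1 and SCEL had labelled knockdown means under 10 and passed the filter through their controls, so the count of called members is a description. The median log2 difference of the 8 was -4.10, against 0.02 for all tested genes. In bulk RNA, fewer cells that express a gene and less RNA per cell cannot be told apart.

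TGM1, at 763, 554 and 416 in the control, was 12.8, 10.1 and 7.48 in the labelled knockdown of MCF10AT1. The control mean was 578 ± 175 (SD, n = 3), and the labelled knockdown mean of 10.1 ± 2.6 (SD, n = 3) was 1.75% of it (log2 difference -5.69, SE 0.43, adjusted p = 0.000134). All 3 labelled knockdown libraries were below all control libraries. A2ML1 was listed at 0, 1.86 and 10.5, or 2.57% of the control (log2 difference -5.61, SE 0.88, adjusted p = 0.00445), and IVL was 2.27, 0.980 and 6.10, or 3.01% (log2 difference -4.86, SE 0.64, adjusted p = 0.00177). SPRR1B, which had risen in MCF10A, was 2.21, 4.80 and 2.44 here, or 2.78% of the control (log2 difference -4.66, SE 0.64, adjusted p = 0.00224). The TGM1 call held with each of the 6 libraries left out in turn.

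The remaining members of MCF10AT1 were less firm. SCEL was 3.33, 18.8 and 1.19, or 10.9% of the control (log2 difference -3.55, SE 0.88, adjusted p = 0.0335), and SPRR2A was 1.11, 0 and 4.53, or 8.66% (log2 difference -3.24, SE 0.86, adjusted p = 0.0435). Groups did not overlap for either gene. The SCEL call was lost without control a or c or labelled knockdown a or c (adjusted p 0.07 to 0.132), and the SPRR2A call without control a or c or labelled knockdown a or b (0.0978 to 0.16), and without control b SPRR2A was under the filter and not tested. SPRR2D was 3.37, 11.7 and 26.1 against 46.2, 94.2 and 61.2, again with no overlap (log2 difference -2.51, SE 0.74), and its adjusted p was 0.0609 without the pairing by letter and 0.0146 with the letter as a block. SPRR1A and SPRR3 were listed at 0 in all 3 labelled knockdown libraries. CNFN stood apart from the rest, at 155, 70.6 and 31.7 against 82.1, 116 and 32.8 in the control (log2 difference 0.05, SE 0.70, adjusted p = 0.972), and the groups overlapped. Groups lay apart for 7 of the 10 members, each with the labelled knockdown below, against 15.6% of all tested genes in that direction and 17.3% in the other. In the same libraries 4 of 7 basal and 2 of 6 luminal markers were lower and 2 of 5 fibroblast markers higher, with the others not called, as given above.

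In MCF10CA1h, IVL and SCEL rose in the labelled knockdown and no member was called lower, so 2 of 10 were called, against 7.91% of 15127 tested genes higher and 4.85% lower. These shares are 1196 and 733 genes, and 1043 and 1035 with the libraries brought to equal sums. The median log2 difference of the members was 0.04, against -0.02 for all tested genes. IVL went from 127, 137 and 277 in the control to 350, 363 and 407, with means of 181 ± 83.7 (SD, n = 3) and 373 ± 29.9 (SD, n = 3), a 2.07-fold rise (log2 difference 1.13, SE 0.27, adjusted p = 0.0202). SCEL went from 132, 164 and 208 to 326, 280 and 381, a 1.96-fold rise (log2 difference 0.98, SE 0.20, adjusted p = 0.011). Neither gene overlapped between the groups. Of the 7 basal markers, 5 were higher in the same libraries, KRT14 (4.46-fold), LAMB3 (2.69-fold), KRT17 (1.63-fold), ITGB4 (1.49-fold) and KRT5 (1.29-fold), and the basal sums did not overlap (301065 to 314697 in control, 411550 to 467648 in the labelled knockdown). The fibroblast sums lay apart too (1270 to 1598 and 2297 to 2350), with DCN higher (1.84-fold) and COL3A1 lower, and CD68 was higher (2.15-fold) and PECAM1 lower. The part of these markers in the rise of IVL and SCEL was not tested. The SCEL call held with each library left out in turn, and the IVL call was lost without control a or b or labelled knockdown b or c (0.0605 to 0.0754). The count of 2 became 1 without control b or labelled knockdown b or c. Without control a it stayed at 2 with another gene, since SPRR3 was then called lower (log2 difference -2.15, adjusted p = 0.0158), and without labelled knockdown a SPRR2A was called higher in addition (0.0323). Neither IVL nor SCEL was called in a joint fit of the 18 libraries (0.34 for IVL and 0.658 for SCEL). That fit takes 1 spread per gene from all lines, MCF10A and MCF10AT1 included. In it, all tested genes called in MCF10CA1h went from 1196 higher and 733 lower to 180 and 68.

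SPRR2A and SPRR2D of MCF10CA1h also lay above their controls in all 3 labelled knockdown libraries without passing the test. SPRR2A was 110, 219 and 133 against 88.1, 75.9 and 83.4 (log2 difference 0.83, SE 0.26, adjusted p = 0.0639). SPRR2D was 2192, 1187 and 1135 against 1130.5, 702 and 868 (log2 difference 0.70, SE 0.25, adjusted p = 0.0959). With these, 4 of the 10 members had all labelled knockdown libraries above all control libraries, against 17.4% of all tested genes, and none had all of them below (15.3%). The other 6 overlapped: SPRR1B was 1072, 1242 and 991 (log2 difference -0.22, adjusted p = 0.606), SPRR1A 18.2, 47.4 and 31.7 (-0.54, 0.503), SPRR3 13.5, 24.3 and 23.0 (-1.39, 0.16), TGM1 79.4, 130.6 and 108 (0.30, 0.56), A2ML1 18.5, 34.7 and 48.7 (-0.58, 0.396) and CNFN 23.0, 38.5 and 36.3 (-0.22, 0.741).

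**Figure D4:**
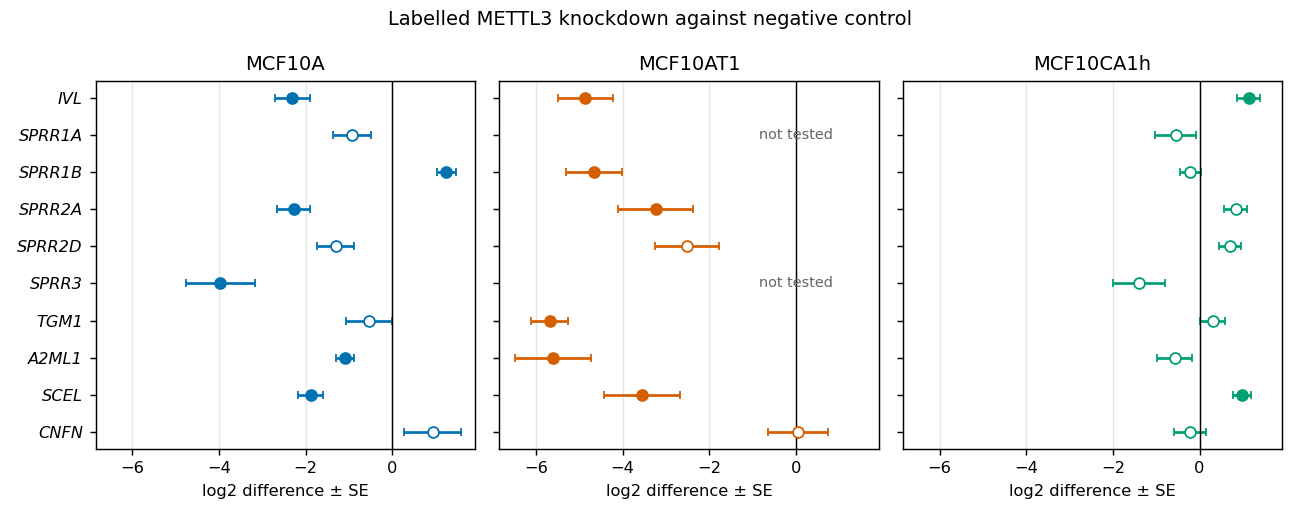
Log2 difference of the normalized count plus 1 between labelled METTL3 knockdown and negative control in each line, with bars of 1 SE; filled points passed an adjusted p of 0.05. IVL and SCEL lie left of 0 in MCF10A and MCF10AT1 and right of 0 in MCF10CA1h, and SPRR1B is right of 0 in MCF10A and left of 0 in MCF10AT1.

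Whether the difference between labelled knockdown and control itself differed between lines was tested in 1 fit of the 18 libraries. Between MCF10CA1h and MCF10AT1, 7 of the 10 members differed, all with the higher value in MCF10CA1h (9.67% of 15897 tested genes in that direction and 8.51% in the other). These were IVL, TGM1, A2ML1, SCEL, SPRR1B, SPRR2A and SPRR2D, with differences of 3.21 (SPRR2D) to 5.99 (IVL) on the log2 scale and adjusted p of 0.00827 or less, and each was called with any of the 18 libraries left out. Between MCF10AT1 and MCF10A, 4 members differed with the lower value in MCF10AT1 (10.5% of all, with 11.2% the other way, or 1664 and 1773 genes, and 2044 and 1340 with equal sums), namely SPRR1B by -5.91 (SE 0.54, adjusted p = 7.3e-07), TGM1 by -5.15 (adjusted p = 2.69e-05), A2ML1 by -4.52 (0.0013) and IVL by -2.56 (0.00823). Between MCF10CA1h and MCF10A, IVL by 3.44 (SE 0.64, adjusted p = 0.00435) and SPRR2A by 3.11 (SE 0.75, adjusted p = 0.0232) differed, with 3.65% of all tested genes called in that direction and 1.69% in the other, and SCEL was just outside the threshold (2.87, 0.0515). The SPRR2A call was lost without MCF10A labelled knockdown c, MCF10CA1h control a, b or c, or MCF10CA1h labelled knockdown b (0.0518 to 0.078). SCEL was called without MCF10A control a, MCF10AT1 control b or c, or MCF10AT1 labelled knockdown b or c (0.00608 to 0.0446). It was also called with a pseudocount of 5 (0.0112). The fit takes 1 spread per gene from all 18 libraries, so MCF10AT1 libraries enter the p-values of this comparison too. With the letter as a block, SPRR1B (0.0475) and SPRR2D (0.0378) were called in addition in that last comparison, 4 members in all. IVL, SPRR1B, SPRR2A, A2ML1 and SCEL had MCF10AT1 labelled knockdown means under 10 and passed the filter through other groups. The counts of members called in the comparisons with MCF10AT1 are therefore a description. These 3 comparisons share libraries.

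Other envelope genes were taken from a list of 43 that holds loricrin, filaggrin, the late cornified envelope (LCE) genes, plakins and others, of which 30 had values in the table. Counts over this list and those that follow are to be read against the shares of all tested genes called, which were 1.16% higher and 1.49% lower in MCF10A, 7.07% and 5.96% in MCF10AT1, and 7.91% and 4.85% in MCF10CA1h. Among the called genes of these lists, SBSN and SULT2B1 in MCF10A, LCE1B, SERPINB7, OVOL1, GRHL1 and HOPX in MCF10AT1, and PRR9 and HOPX in MCF10CA1h had a mean under 10 in 1 of the groups and passed the filter through the other. In MCF10A, 4 of 14 tested were lower and none higher: PI3, an elastase inhibitor that is itself linked into the envelope, SPRR2E, SBSN and ECM1. PI3 fell from 483, 923 and 1393 to 89.7, 83.7 and 96.4 (log2 difference -3.23, SE 0.36, adjusted p = 0.00803), SPRR2E had a log2 difference of -2.84, SBSN of -2.59 and ECM1 of -1.86. LCE3D, at 89.5, 227 and 2195 in the control, of which replicate c stood far from the others, was 21.7, 12.3 and 40.7 in the labelled knockdown and did not pass the test (adjusted p = 0.0926). In MCF10AT1, PI3 was again lower (log2 difference -4.41, adjusted p = 0.00137), LCE1B was lower (-4.16, 0.0122), and ECM1 was higher, from 19.5, 65.9 and 20.3 to 408, 269 and 168 (log2 difference 3.10, SE 0.59, adjusted p = 0.0102), 3 called of 8 tested. In MCF10CA1h, LCE3D rose from 40.1, 65.3 and 34.0 to 327, 797 and 248 (log2 difference 3.14, SE 0.40, adjusted p = 0.00094), and PRR9 (2.28) and the cysteine protease inhibitor CSTA (0.40) were higher. The plakins PPL (-1.13), which ties the envelope to the desmosome, and EVPL (-0.37) were lower there, which gave 5 called of 10 tested. The medians over the tested genes of this list were -1.25 for MCF10A, -0.44 for MCF10AT1 and 0.18 for MCF10CA1h.

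Among 15 enzymes and transporters of the envelope and its lipids, 14 were in the table and the transglutaminases went separate ways. TGM2, the tissue transglutaminase, rose from 115.5, 137 and 126 to 11334, 15873 and 11325 in the labelled knockdown of MCF10AT1, a 102-fold rise (log2 difference 6.64, SE 0.26, adjusted p = 1.87e-05), in the libraries where TGM1 fell to 1.75% of its control. TGM2 also rose in MCF10CA1h, from 750, 924 and 1258 to 3133, 4240 and 4592 (log2 difference 2.04, adjusted p = 0.000159), where TGM5 fell (-1.42, 0.0361), and was not called in MCF10A (-1.02, 0.203). In MCF10AT1, CASP14, a protease of the cornified layer, ABCA12, a lipid transporter, and the cholesterol sulfotransferase SULT2B1 were lower with log2 differences of -6.73, -5.97 and -4.21, and the lipoxygenase ALOX12B was higher (4.03), 5 called of 9 tested. CASP14 (mean 0.890 against 209), SULT2B1 (2.47 against 60.8) and ALOX12B (41.2 against 1.06) passed the filter through 1 group only, so that count is a description. SULT2B1 was the 1 gene of 6 tested that was called in MCF10A (-3.15, adjusted p = 0.0399). In MCF10CA1h the lipoxygenase ALOXE3 (1.44) and ABCA12 (0.67) were higher, and 4 of 6 were called. Of 9 squamous protease inhibitors, SERPINB2 was lower in MCF10A (-2.60, adjusted p = 0.0289) and higher in MCF10CA1h (2.57, adjusted p = 0.00176), 1 of 5 and 2 of 6 called. SERPINB7 was lower in MCF10AT1 (-3.20) and higher in MCF10CA1h (2.39), and SPINK5 was lower in MCF10AT1 (-3.57), where 2 of 3 were called. Of 11 keratins of differentiating layers, 9 in the table, none of 2 tested was called by limma in MCF10A, where KRT80 had an unadjusted p of 0.00314 and KRT10 of 0.657, KRT80 was lower in MCF10AT1 (-1.59), and KRT13 (-2.45) and KRT10 (-0.53) were lower in MCF10CA1h.

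The 27 transcription factors and regulators of squamous differentiation had the most calls in MCF10AT1, where 9 of 24 tested were lower and 2 higher (5.96% and 7.07% of all tested genes), with a median log2 difference of -1.24. ELF3 fell from 6412, 2260 and 3811 to 44.1, 15.4 and 34.8 (log2 difference -6.999, SE 0.51, adjusted p = 0.000112), GRHL2 had a log2 difference of -6.90 and OVOL1 of -6.28. GRHL2 was 0.92, 32.6 and 0.98 in the labelled knockdown, so 1 library held most of its mean of 11.5. In MCF10CA1h the GRHL2 means were 1.19 in control and 0.79 in labelled knockdown, and it was not tested. The AP-1 genes FOS (-2.55), FOSB (-2.50) and JUN (-2.26) were also lower in MCF10AT1, while FOSL1 (0.53), FOSL2 (-1.06), JUNB (-0.09) and JUND (-0.51) did not pass the test. None of these 7 genes was called in MCF10A or MCF10CA1h. In MCF10A, FOS was 0.11, FOSB -0.41, JUN 0.23, FOSL1 -0.75, FOSL2 0.44, JUNB -0.01 and JUND -0.27. In MCF10CA1h, FOS was -0.62, FOSB -0.92, JUN 0.08, FOSL1 0.50, FOSL2 0.40, JUNB -0.54 and JUND -0.29. Groups did not overlap for FOSL2 (above control, adjusted p = 0.118) and FOSL1 (below, 0.0597) in MCF10A. The same held for FOSL2 (above, 0.0571) and FOS (below, 0.0771) in MCF10CA1h. In MCF10AT1, GRHL3, an activator of TGM1, was higher instead, from 34.0, 36.1 and 158 to 542, 674 and 1900 (log2 difference 3.91, SE 0.69, adjusted p = 0.00781), as was HOPX (4.20). In MCF10A, PRDM1, a repressor found in the upper epidermis, was the 1 of 23 tested that was called, at 678, 1339 and 973 in the control and 184, 119 and 115 in the labelled knockdown (log2 difference -2.81, SE 0.30, adjusted p = 0.00803). In MCF10CA1h, ZNF750 (-2.59), HOPX (-2.81) and CEBPD (-0.62) were lower, 3 of 23 tested, against 4.85% of all tested genes. TP63, the master factor of stratified epithelia, was not called in any line (log2 differences 0.40, 1.05 and -0.39), nor was KLF4 (-0.12, -1.54 and -0.44).

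**Figure D5:**
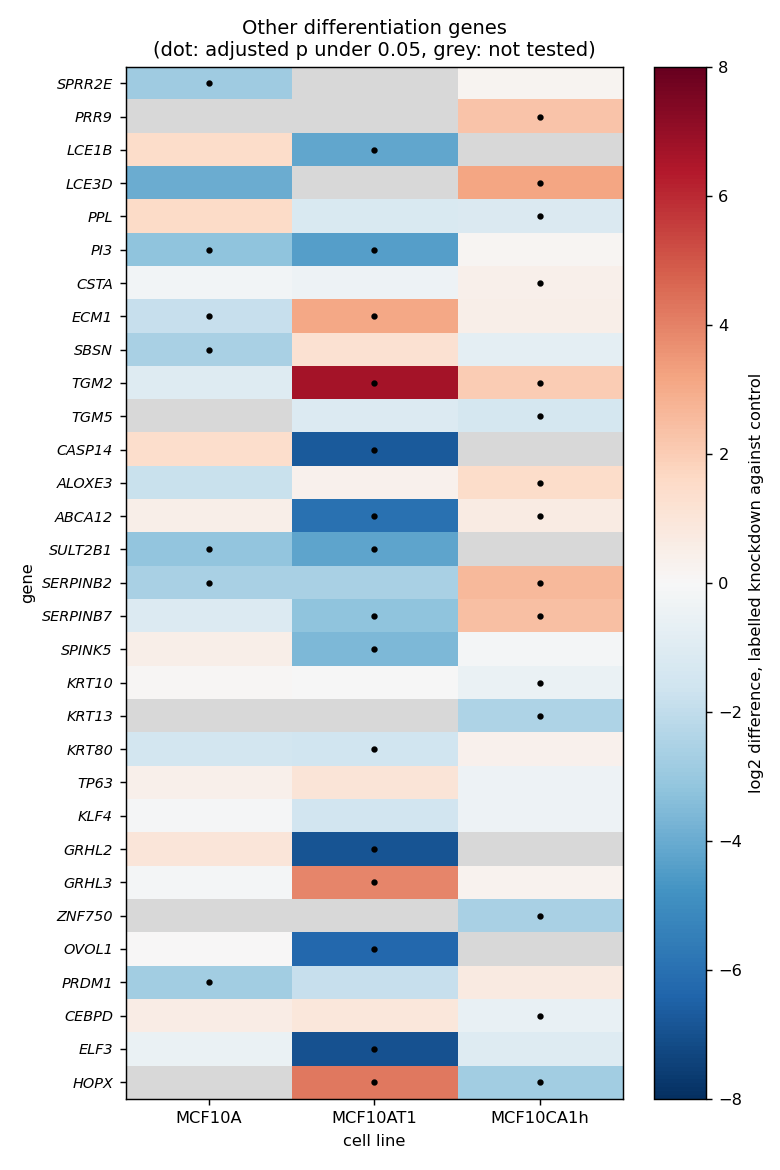
Log2 difference of the normalized count plus 1 between labelled METTL3 knockdown and negative control for 31 other differentiation genes named by the rule (rows) in the 3 lines (columns); dots mark an adjusted p under 0.05 and grey marks genes not tested. PI3 is low in MCF10A and MCF10AT1, and TGM2 has the highest value, 6.64, in MCF10AT1.

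All members but CNFN correlated with their mean profile over the 18 libraries, to differing degrees. They did not move alike in each comparison, as given above for TGM1, A2ML1 and SPRR1B. The correlation of each gene with the mean profile of the 10 (log2 of the normalized count plus 1, each gene standardized) was 0.92 to 0.95 for SPRR2A, IVL, SPRR1B, SPRR2D, SPRR1A and SCEL, 0.72 to 0.74 for SPRR3, TGM1 and A2ML1, and -0.52 for CNFN. Each member is part of that mean, and the libraries share clone and line, so these values are a description. Among 15897 genes, the 10 closest to the mean profile included MIR205HG (r = 0.96), KRT6A (0.96), PTAFR (0.96), MBOAT1 (0.95), KRT6C (0.95), FOXQ1 (0.95), ACOT11 (0.95) and KLC3 (0.95). KRT6A and KRT6C encode keratins of stratified and wounded epithelium, and MIR205HG is the host gene of an epithelial microRNA. KRT6A had means of 203746 and 110601 in control and labelled knockdown of MCF10A, 32383 and 281 in MCF10AT1, and 52417 and 140577 in MCF10CA1h. Its means thus had the order of those of IVL in each line, lower in the labelled knockdown of MCF10A and MCF10AT1 and higher in that of MCF10CA1h. KRT6A was picked for its likeness to a mean that includes IVL, so this order is a description.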

How the data were processed

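RNA sequencing of 18 libraries was analyzed, with 3 replicates in each of 6 groups. By the methods text the libraries were made from total RNA depleted of ribosomal RNA, while its heading and the labels name polyA RNA, and this was not settled here. Pseudo-alignment to hg38 transcripts by the authors used kallisto 0.46.1, tximport gave values per gene and DESeq2 1.26.0 the normalization, in R 4.1.1, per the submitters' processing notes and the methods. The deposited values are these normalized counts, a signal with 2 decimals that is neither whole reads nor a value per length. Between 9.42% and 34.9% of the values under 10 in a library were whole multiples of its most frequent low value (0.81 to 1.77, tolerance 0.015), so reads were not recovered, no count test was run and the precision from depth is unknown. Of the lines in the table, 24646 held no values for the libraries, 7 of them with a lone number, and were not used. A symbol was found for 35894 of 35933 genes, and for 294 genes whose symbol a gene with higher values also held, the higher gene was used under that symbol.

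Tests covered genes whose mean reached 10 across the libraries fitted and were made on log2(normalized count + 1) with limma 3.58.1 in R 4.3.3 (lmFit, and eBayes with an intensity trend), two-sided, with Benjamini-Hochberg adjustment over all tested genes and a threshold of 0.05. Such log2 differences understate the change of low genes. Each line was fitted alone, the 9 control libraries together, and differences between lines as interaction contrasts in all 18. The script was checked on simulated data. Python 3.11.15 (NumPy 2.4.6, pandas 2.3.3, matplotlib 3.10.9) made tables and figures. Percentages of control are ratios of group means.

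Replicate letters are those of the titles. Deviations from the group means over 15897 genes were correlated between control and labelled knockdown libraries. At the same letter the values were 0.22, 0.20 and 0.12 in MCF10A and 0.11, 0.29 and 0.48 in MCF10AT1. At different letters they were -0.17 to 0.01 in MCF10A and -0.41 to 0.25 in MCF10AT1. The letters may thus pair the libraries there, and the main tests did not use them. With the letter as a block, all tested genes went from 179 higher and 230 lower to 438 and 734 in MCF10A. In MCF10AT1 they went from 1134 and 957 to 2085 and 1854. In MCF10CA1h the values at the same letter were -0.01, 0.02 and 0.05. Between the controls of different lines they lay from -0.27 to 0.28, a range that also holds those of MCF10A. No pairing was taken in MCF10CA1h or between lines.

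The members and gene lists were chosen with earlier results of these data known. Named are all members, METTL3, up to 4 genes per list and line with the largest differences past the threshold, with TP63, KLF4, GRHL3 and ZNF750 in any case, and the 10 genes most like the members, of which some genes are not reported here. EVPL, ALOX12B, GRHL1, FOS, FOSB, JUN, FOSL1, FOSL2, JUNB and JUND and the cell type markers are named in addition, after their values were seen. The alternatives were no filter on low values or a stricter one (50), other pseudocounts (0.5, 5), equal library sums, no intensity trend, the replicate block, a joint fit of the 18 libraries, and each library left out in turn.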

Additional observations from a re-analysis of the deposited data

Results flagged for a closer look

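The difference between labelled METTL3 knockdown and control was itself different between lines for the genes that follow, by interaction contrasts with an adjusted p under 0.05. All values are on the log2 scale of the normalized count plus 1. For IVL the difference was lower in MCF10AT1 than in MCF10A (-2.56), higher by 3.44 in MCF10CA1h than in MCF10A and higher by 5.99 in MCF10CA1h than in MCF10AT1. For SPRR1B it was lower in MCF10AT1 than in MCF10A (-5.91) and higher by 4.44 in MCF10CA1h than in MCF10AT1. TGM1 had corresponding values of -5.15 and 5.99, and A2ML1 of -4.52 and 5.03. SPRR2A was higher by 3.11 in MCF10CA1h than in MCF10A and by 4.07 than in MCF10AT1. Between MCF10CA1h and MCF10AT1, SPRR2D differed by 3.21 and SCEL by 4.53. For IVL, SPRR1B, SPRR2A, A2ML1 and SCEL the MCF10AT1 labelled knockdown means were under 10, so their differences that involve MCF10AT1 are a description.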

How the results depend on the processing

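Over 88 differences of single members and 1623 alternative values, 1450 kept direction and side of the threshold, 129 lost the call, 22 gained it and 22 changed sign. With no filter on low values the count of called members was 0 in MCF10A (6 at an unadjusted p under 0.05), 3 in MCF10AT1, 0 in MCF10CA1h (3 at an unadjusted p under 0.05) and 2 for MCF10CA1h against MCF10A controls, and more genes were then tested, 35933. With no intensity trend it was 1 in MCF10A and 1 in MCF10CA1h, and in the joint fit 3 and 0 (1 at an unadjusted p under 0.05). With the replicate block it was 3 for MCF10CA1h against MCF10A controls and 4 for the difference of MCF10CA1h minus that of MCF10A, which was 1 with a pseudocount of 0.5. The block made it 7 in MCF10A, 7 in MCF10AT1 and 3 in MCF10CA1h by adding SPRR2D in each, where the MCF10CA1h libraries share only a letter (adjusted p = 0.0109). It left 9 members for MCF10AT1 against MCF10A controls, 7 for MCF10CA1h against MCF10AT1 controls, and 4 and 7 for the other differences between lines. The cause of these changes was not tested. Leaving out each library in turn gave 0 to 6 members in MCF10A, 4 to 6 in MCF10AT1, 1 to 3 in MCF10CA1h, 3 to 6 for MCF10CA1h against MCF10A controls, and 1 to 4 for the difference of MCF10CA1h minus that of MCF10A.

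Values that changed sign belonged to differences not called. CNFN in MCF10AT1 was -0.11 with equal sums, and SPRR2A for MCF10AT1 minus MCF10A was 0.29 with a pseudocount of 5. With libraries left out, the ranges were -1.16 to 0.047 for TGM1 in MCF10A, -0.51 to 0.62 for CNFN in MCF10AT1, -0.50 to 0.079 for CNFN and -0.51 to 0.084 for SPRR1B in MCF10CA1h. Among controls they were -0.047 to 1.16 for TGM1 in MCF10AT1 against MCF10A, and -0.15 to 0.63 for SPRR1A, -0.55 to 0.037 for SPRR1B and -0.052 to 1.30 for SPRR3 in MCF10CA1h against MCF10A. Between lines they were -0.094 to 0.74 for SPRR1A (MCF10CA1h minus MCF10A), and -1.39 to 0.24 for SPRR3 and -0.84 to 0.29 for CNFN (MCF10CA1h minus MCF10AT1). Equal sums moved the median of all genes to -0.15 in MCF10AT1, -0.15 and 0.16 for MCF10AT1 against MCF10A and MCF10CA1h against MCF10AT1 controls, and -0.26 and -0.17 for MCF10AT1 and MCF10CA1h minus MCF10A. Depth per gene is unknown, so values near 0, as in MCF10AT1 labelled knockdown, carry a counting error that was not measured.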
